A study of Homo sapiens with 3 samples.

Results

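The 2 hairpins that target YES1 in this study, sh490 and sh1362, were compared with each other in H209 (NCI-H209), a human cell line established from a small cell lung cancer, a tumour of neuroendocrine character. All genes with a mean of at least 5 CPM (counts scaled to the library size, scaled between libraries by the TMM method) over the sh490 and sh1362 libraries were taken, which were 11633 of the 60609 genes in the tables. H209 cells carried a lentiviral Tet-pLKO-puro construct, from which doxycycline induces a short hairpin RNA. Groups were sh490 and sh1362, each with a hairpin against YES1, and shGFP, the control, with a hairpin against GFP, a gene that human cells lack. Every group received doxycycline at 1 µg/mL, renewed every 2 days, and every group was 1 library of polyadenylated RNA. The time from induction to harvest, the hairpin sequences, and whether each line was a pool or a clone are not stated in the labels. With 1 library for each hairpin there is no replicate check: the values compare these libraries, and no test across samples was possible.

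A short hairpin RNA is cut by DICER1 into a small duplex, of which the guide strand is loaded into an Argonaute protein. The guide cuts a transcript that it matches along its length, and, as a microRNA does, it can also lower transcripts whose 3' untranslated region pairs only with the bases near the guide's 5' end, the seed. YES1 is a membrane-associated tyrosine kinase of the Src family. Hairpins with different sequences against the same gene share that target and have different seeds.

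The labels fitted the line and the target. The neuroendocrine markers INSM1, CHGA, SYP, NCAM1, DDC and GRP were all present, and SYP, a synaptic vesicle protein, had 1339 counts with sh490, 1538 with sh1362 and 943 with shGFP. POU2F3, the marker of the tuft-cell subtype, had 1 count with sh490 and 0 in the other libraries. Total counts were 7791747, 7421552 and 4899006, so equal counts stand for a higher level with shGFP than with either hairpin. Genes of the mitochondrial genome took 5.50%, 7.78% and 5.47% of these totals. The shGFP library stood apart by its globin reads, with 3124 counts of HBB against 136 and 140 with the hairpins, so HBB was close to even between the libraries compared here. None of the 17 leukocyte markers reached the minimum level, and of 14 fibroblast and endothelial markers only COL1A1 and KDR did, with DCN, PDPN, FAP and TEK at 0 counts in all 3 libraries.

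YES1 was low with both hairpins. It had 163 counts with sh490, 216 with sh1362 and 1465 with shGFP, or 20.7, 29.5 and 300 CPM. The remaining level was 6.89% of shGFP with sh490 (exact 95% interval 5.82 to 8.10) and 9.81% with sh1362 (8.47 to 11.3). Between the hairpins, YES1 was 1.43-fold higher with sh1362 (1.16 to 1.76), a log2 difference of 0.51. All intervals here come from the counts of single libraries, cover counting error only, and treat reads as independent, which reads without molecular identifiers are not.

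Across the 11633 genes, 256 (2.2%) were at least 2-fold higher with sh1362 than with sh490 and 432 (3.71%) at least 2-fold lower, 688 (5.91%) in all. As each library is a bulk extract, fewer cells that hold a transcript and less of that transcript per cell cannot be told apart. The middle of the distribution was centred, with a median log2 difference (sh1362 minus sh490, on log2 CPM with a prior count of 2) of -0.01 and quartiles of -0.31 and 0.26. Requiring the whole counting interval to lie beyond 2-fold left 81 higher and 183 lower genes. The spread was widest among weakly expressed genes: the SD of the difference was 0.65 in the fifth of genes with the lowest mean CPM and 0.42 in the fifth with the highest. At the minimum level itself, CEACAM19, with 24 and 51 counts, was just inside at 5.0002 CPM and GPR27, with 25 and 50, just outside at 4.9954 CPM. YAP1, the transcriptional coactivator, also fell outside with 65 counts with sh490, 11 with sh1362 and 64 with shGFP.

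**Figure D1:**
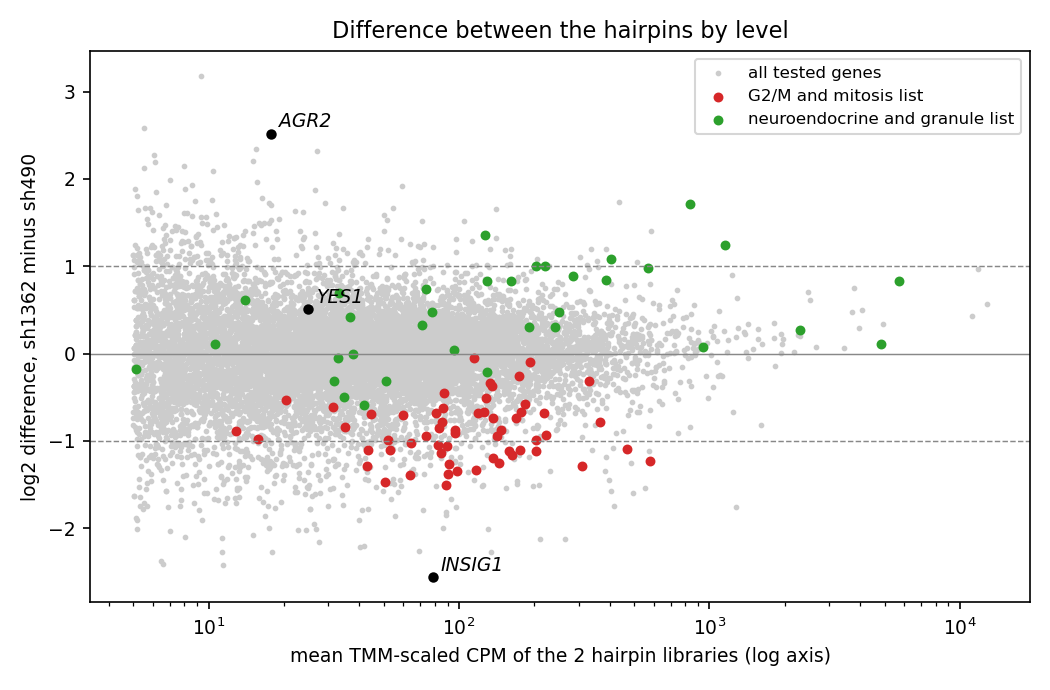
Log2 difference (sh1362 minus sh490, vertical axis) against the mean TMM-scaled CPM of both hairpin libraries (horizontal log axis), 1 point per gene for 11633 genes, with dashed lines at 2-fold. All 58 genes of the G2/M and mitosis list (red) lie below 0, most of the 34 neuroendocrine and granule genes (green) lie above it, and the grey cloud narrows as the level rises.

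The library of the control hairpin shows on which side these differences lay. It was scaled together with both hairpin libraries and had no part in choosing the genes, but the sh490 and sh1362 values enter both comparisons, so the positions are descriptions. Of the 432 genes lower with sh1362, shGFP was nearer to sh490 in 375 (86.8%), against 63.2% of all genes. Their median difference from shGFP was 0.12 with sh490 and -1.17 with sh1362. Of the 256 genes higher with sh1362, shGFP was nearer to sh490 in 181 (70.7%), with medians of -0.38 for sh490 and 0.95 for sh1362. Set against shGFP over all 11633 genes, sh490 had 202 genes (1.74%) at least 2-fold higher and 125 (1.07%) lower, whereas sh1362 had 475 (4.08%) and 591 (5.08%).

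The gene with the lowest value in sh1362 relative to sh490 was INSIG1, which encodes an endoplasmic reticulum protein that holds back the activation of the sterol factor SREBP when sterols are plentiful. INSIG1 (chromosome 7, 155297776 to 155310235 on the plus strand of GRCh38) had 1060 counts with sh490, 165 with sh1362 and 741 with shGFP, or 134, 22.5 and 152 CPM. Only sh1362 was low, by 5.97-fold against sh490 (5.06 to 7.07) and by a log2 difference of -2.74 against shGFP. VCAN, the matrix proteoglycan versican, had 153, 25 and 95 counts in the same order, 5.68-fold lower with sh1362 (3.71 to 9.06). ERBB4, a neuregulin receptor tyrosine kinase, had 89, 14 and 50 counts, 5.90-fold lower (3.34 to 11.2).

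The next genes included several that are abundant in this line, where counting error is small. NIPAL3, a magnesium transporter-like membrane protein, had 908, 175 and 570 counts and was 4.82-fold lower with sh1362 than with sh490 (4.10 to 5.70). MAL2, which acts in the transport of membrane proteins to the apical surface of epithelia, had 2708, 575 and 1371 counts, 4.37-fold lower (3.9965 to 4.79). ANO6, a calcium-activated phospholipid scramblase, had 1655, 380 and 1177 counts, 4.05-fold lower (3.62 to 4.53). In these 3 genes shGFP lay within a log2 difference of 0.29 of sh490 and at least 1.84 above sh1362. HNMT, the histamine-inactivating methyltransferase, had 236, 44 and 167 counts (log2 difference -2.27 between the hairpins), ADGRG6, an adhesion G protein-coupled receptor, 522, 103 and 407 (-2.21), and KATNAL1, a subunit of a microtubule-severing enzyme, 104, 21 and 56 (-2.10). CHRNA9, a nicotinic receptor subunit, had 87, 14 and 50 counts (-2.38). C8orf33, with 1763, 338 and 911 counts (-2.27), and the zinc finger gene ZNF704, with 542, 108 and 275 (-2.20), showed the same order of libraries.

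In 3 of the 15 lowest protein-coding genes the control was not near sh490. IGFBP5, which binds insulin-like growth factors, had 3398 counts with sh490, 720 with sh1362 and 1006 with shGFP, so that the control lay between them (431, 98.2 and 206 CPM). FOXI3, a forkhead transcription factor, had 149, 27 and 32 counts, with shGFP nearer to sh1362. TMPRSS4, a membrane serine protease, had 359, 73 and 34 counts: here sh490 was the library that stood apart, by a log2 difference of 2.66 from shGFP, while sh1362 lay 0.50 above it. TAP2, a subunit of the peptide transporter that loads MHC class I molecules, completed the 15 with 146, 30 and 75 counts (-2.11).

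The transcripts lower with sh1362 shared short words in their 3' untranslated regions. Every word of 7 bases was ranked by the median difference of the genes that carry it in their longest annotated 3' untranslated region (GENCODE 29) against the genes that do not, over 10933 genes and the 11323 words with at least 500 carriers. YES1 itself was left out of the search. The lowest rank was that of TGGCATA, followed by ATGGCAT and GGCATAT, which overlap one another in the stretch ATGGCATAT. Their carriers had lower medians than other genes by 0.23, 0.21 and 0.19 on the log2 scale. The words were ranked by this same difference, so their values describe these libraries and support nothing further. The stretches around the words in 6 of the leading lower genes are given here 5' to 3', with the bases that belong to ATGGCATAT in capitals, to show how much of it each transcript holds.
INSIG1: tattcatttaATGGCATAgacc
HNMT: ctgaatttctATGGCATATtgat
KATNAL1: agaaaaataaATGGCATATatcc
ANO6: tcacacattgTGGCATAagat
TAP2: gagtattttgTGGCATAatac
VCAN: aatgagtttgGGCATATttaa

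HNMT and KATNAL1 held the full stretch, INSIG1 held 8 of its bases, and ANO6, TAP2 and VCAN are shown at a 7-base copy. Of the 15 lowest protein-coding genes 13 carried at least 1 of the 3 words, all but CHRNA9 and FOXI3. Of the 15 highest 2 did, RORB and NOX4, against the direction of the words. Over all genes searched, at least 1 word was found in 208 of the 413 that lay at least 2-fold lower with sh1362 (50.4%), in 28 of the 217 at least 2-fold higher (12.9%), and in 2515 of all 10933 (23%). Without the carriers, an alternative chosen after seeing the data, 224 lower and 228 higher genes remained.

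The values by number of words follow from the same choice and are descriptions. The 8418 genes with none had a median of 0.02, the 1620 with 1 word -0.13, the 660 with 2 words -0.23 and the 235 with all 3 words -0.35. The share at least 2-fold lower was 2.44%, 6.36%, 10.6% and 14.9% in the same order. Carriers also had longer 3' untranslated regions, with a median of 1200 bases for genes with no word and 4692 for genes with all 3. With the genes split into 3 equal classes by that length, carriers and other genes had medians of -0.29 and -0.02 in the shortest, -0.25 and 0.04 in the middle and -0.14 and 0.05 in the longest. As the words were chosen for low carriers, the part of that length was not tested. The reverse complements of the 3 words had differences between -0.02 and 0.00. In the 1556 genes with a word only upstream of the 3' untranslated region the median was -0.08.

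Against shGFP these carriers stood apart with sh1362 and not with sh490. Genes with all 3 words had a median of -0.38 for sh1362 minus shGFP and -0.01 for sh490 minus shGFP. The words at the other end of the ranking were ACTATAA, followed by TACTATA and ACTATAT. Their carriers were higher with sh1362 than with sh490, by 0.11, 0.09 and 0.07 relative to other genes. For genes with all 3 of them the median was -0.15 for sh490 minus shGFP and 0.01 for sh1362 minus shGFP. These carriers were 88 of the 217 genes searched that were at least 2-fold higher with sh1362 (40.6%), against 2624 of all 10933 (24%). The comparisons share libraries, so the values stand side by side only. Of 2370 mature human microRNAs from RefSeq, 0 have a seed (bases 2 to 8) that pairs with any of these 6 words.

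**Figure D2:**
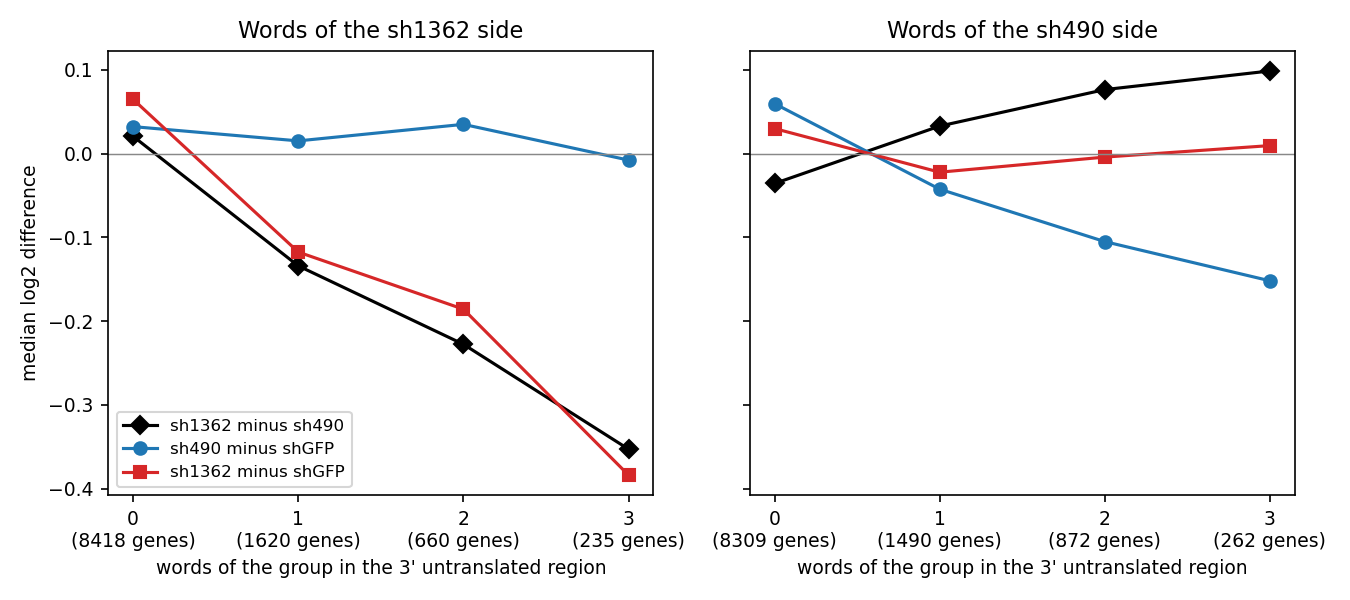
Median log2 difference (vertical axis) of genes with 0, 1, 2 or 3 of the words of each group in the 3' untranslated region (horizontal axis, genes in brackets), for sh1362 minus sh490 (black), sh490 minus shGFP (blue) and sh1362 minus shGFP (red). On the left, genes with all 3 words that ranked lowest, TGGCATA among them, reach -0.38 with sh1362 and stay at -0.01 with sh490. On the right, genes with all 3 words that ranked highest, TACTATA among them, reach -0.15 with sh490 and stay at 0.01 with sh1362.

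Both groups of words also occur in the coding sequence of YES1, the transcript that both hairpins target. Of the copies, 3 are shown with the words in capitals, from the GENCODE 29 transcript on the minus strand of chromosome 18 (GRCh38): the coding copy of the sh1362 words and both copies of TACTATA.
YES1 exon 10: tgctgatggtATGGCATATattg
YES1 exons 2 and 3: caggtggtgtTACTATATttgt
YES1 exon 6: caatggtggaTACTATATcaca
The stretch in exon 10 is chr18:736937-736959 and the stretch in exon 6 is chr18:745757-745778. Counted from the first base of the coding sequence, TACTATA starts at 279 and again at 664, and TGGCATA starts at 1151. ACTATAT overlaps both copies of TACTATA and starts again at 1002 in exon 8 and at 1172 in exon 10. The 3 words of the sh1362 group also occur once more, in the 3' untranslated region of YES1, as does ACTATAA. Other genes hold such words too. Of the 8418 genes with no word of the sh1362 group in the 3' untranslated region, 1556 carried at least 1 upstream of it. For the words at the other end of the ranking it was 871 of 8309 genes. How many held all 3 words upstream was not counted. The labels do not say what the numbers in the names of the hairpins count, and the hairpin sequences were not used here, so the words were not matched to a hairpin.

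Genes higher with sh1362 were led by weakly expressed tissue-specific transcripts. AGR2 (chromosome 7, 16791811 to 16833433, GRCh38) encodes a protein disulfide isomerase of secretory epithelia that helps mucins fold. It had 40 counts with sh490, 222 with sh1362 and 54 with shGFP, or 5.07, 30.3 and 11.05 CPM, 5.98-fold higher with sh1362 than with sh490 (4.25 to 8.59). Only sh1362 was high, and sh490 lay below the control by a log2 difference of 1.08. GC, the vitamin D-binding protein of plasma, had 11, 71 and 11 counts, a log2 difference of 2.59 between the hairpins. RORB, an orphan nuclear receptor, had 39, 191 and 34 counts (2.34), and AKAP3, an anchoring protein for protein kinase A known from sperm, had 70, 331 and 65 (2.31).

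In the other leading genes sh1362 was again the highest of the 3 libraries. DSG1, a desmosomal cadherin, had 15, 75 and 20 counts (2.28), the beta-1 adrenergic receptor gene ADRB1, with the control midway, 16, 75 and 23 (2.20), and NOX4, a hydrogen peroxide-producing NADPH oxidase, 30, 125 and 29 (2.09). PPP1R3C, which directs protein phosphatase 1 to glycogen, had 22, 97 and 19 counts (2.15). In FGB, the fibrinogen beta chain, both hairpins were above the control, with 49, 183 and 11 counts. MYOF, a membrane-repair protein of the ferlin family, had 194, 684 and 71 counts and the same order. For CLNK, an adaptor of immune receptor signalling with 16, 60 and 38 counts, the control lay near sh1362 and sh490 was the low library. DCDC1, TRIM67, GINM1 and CLVS1 completed the 15, at log2 differences of 1.85 to 1.93.

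Abundant genes also lay on the higher side, SYT4 and MGAT4A among them. SYT4, a synaptotagmin of secretory vesicles, had 3064 counts with sh490, 9358 with sh1362 and 2377 with shGFP, 3.29-fold higher with sh1362 than with sh490 (3.16 to 3.43). MGAT4A, a glycosyltransferase that branches N-glycans, had 1581, 4895 and 2167 counts, 3.33-fold higher (3.15 to 3.53), with sh490 below the control by a log2 difference of 1.15. The control lay nearer to sh490 for SYT4 and nearer to sh1362 for MGAT4A.

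**Figure D3:**
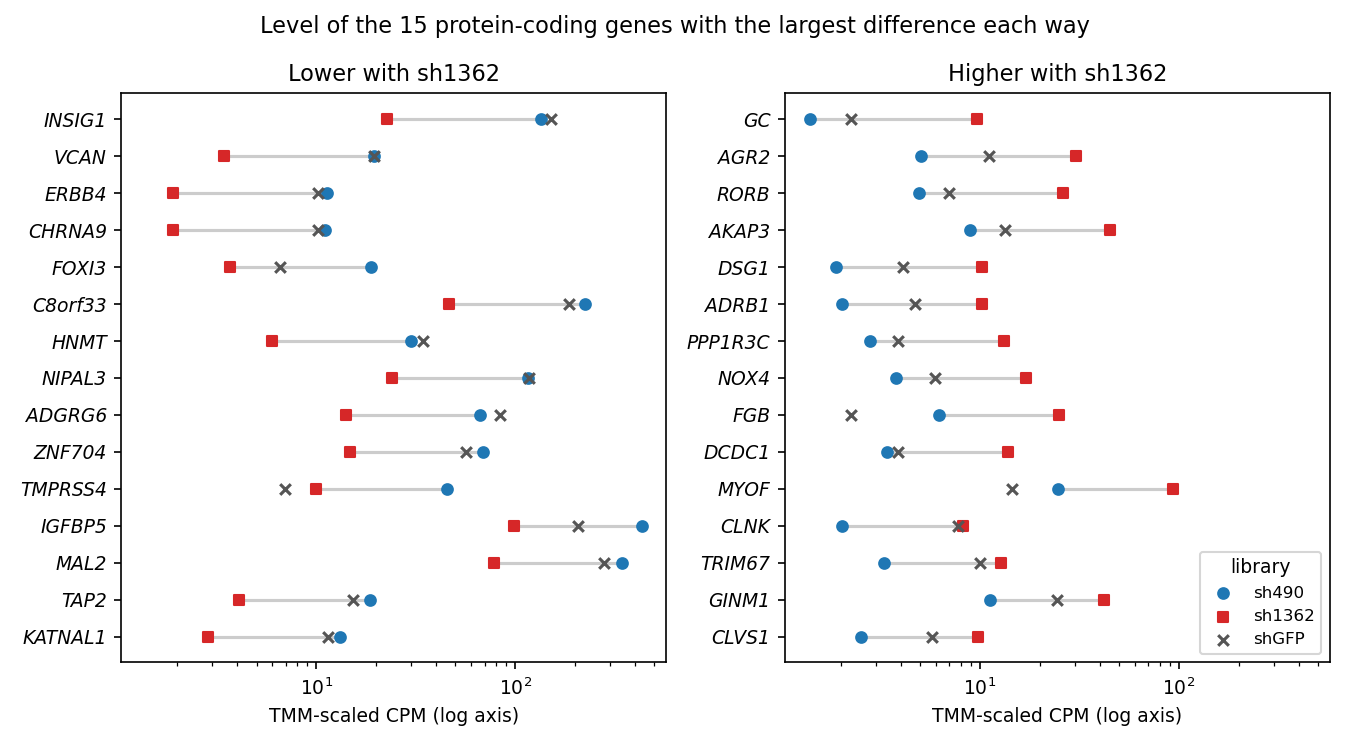
TMM-scaled CPM (horizontal log axis) of the 15 protein-coding genes with the largest difference each way, with 1 symbol per library for sh490 (blue circle), sh1362 (red square) and shGFP (grey cross). On the left the cross mostly sits by the blue circle, with FOXI3, TMPRSS4 and IGFBP5 as the exceptions named in the text; on the right the crosses lie between the hairpins, apart from those of FGB and MYOF, which lie below both.

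Sterol and lipid genes were mostly lower with sh1362, INSIG1 far more than the rest. Cholesterol synthesis is switched on by SREBF2 (SREBP2), which SCAP carries from the endoplasmic reticulum to the Golgi for cleavage by the proteases encoded by MBTPS1 and MBTPS2, and INSIG1 and INSIG2 hold SCAP back. SREBF2 had 1988 counts with sh490, 656 with sh1362 and 1535 with shGFP, 2.81-fold lower with sh1362 than with sh490 (2.58 to 3.08). MBTPS2 had 496, 186 and 375 counts (log2 difference -1.30). INSIG2 went the other way, with 174, 362 and 207 counts (1.15), and SCAP, with 149, 107 and 75, was at -0.37. Of the 15 genes of sterol sensing and uptake measured, 3 were at least 2-fold lower (3.71% of all genes) and 1 higher (2.2% of all genes). The median was -0.37 beside -0.01 over all genes. Against shGFP the medians of this list were -0.17 with sh490 and 0.002 with sh1362, so its median with sh1362 was level with the control. SREBF2, MBTPS2 and INSIG1 made up the lower 3. SREBF2 and INSIG1 carried words of the sh1362 group and MBTPS2 did not, and the median of the 8 members without a word was -0.22.

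The enzymes that make sterols differed less. Of 19 measured, 17 were lower with sh1362 (50.9% of all genes were lower by any amount) and 2 higher, PMVK and SC5D. None was 2-fold apart on the log2 scale with the prior count. The median was -0.40. LSS, which closes the sterol rings, was at -0.99 with 304, 141 and 98 counts and was the 1 member of 19 that carried a word. At 38.5, 19.2 and 20.1 CPM, the control was nearly level with sh1362, and sh490 was the library that stood apart. FDFT1, squalene synthase, was at -0.77 with 1773, 968 and 1243 counts, and EBP, a sterol isomerase, at -0.72. Against shGFP the medians of the enzymes were 0.02 with sh490 and -0.35 with sh1362. Among 16 fatty acid synthesis genes, 3 were at least 2-fold lower (3.71% of all genes), with a list median of -0.43. They were the desaturases FADS1 (1823, 731 and 1425 counts), SCD5 and FADS2, at -1.21, -1.12 and -1.02. FASN, fatty acid synthase, was at -0.89. Words of the sh1362 group stood in 6 of the 16, FADS1 and FADS2 among them, and the median of the other 10 was -0.18.

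Genes of cell division were lower with sh1362 throughout. Of 58 measured G2/M and mitosis genes, 58 were lower with sh1362 than with sh490 (50.9% of all genes) and 23 at least 2-fold lower (3.71% of all genes), with a median of -0.92. MKI67, the proliferation marker Ki-67, had 6385 counts with sh490, 2517 with sh1362 and 4277 with shGFP, or 809, 343 and 875 CPM, 2.36-fold lower with sh1362 than with sh490 (2.25 to 2.47). PLK1, a kinase that drives mitotic entry, had 590, 196 and 255 counts (-1.47), CDC20, an activator of the anaphase-promoting complex, 1034, 367 and 521 (-1.38), and the mitotic kinesin KIF14 1035, 338 and 443 (-1.50). For MKI67 the control lay close to sh490, and for PLK1 and KIF14 it lay between the hairpins. The smallest differences were those of ANLN (-0.05), a scaffold of the dividing furrow, and the checkpoint gene BUB3 (-0.10). Against shGFP the median of the list was -0.07 with sh490 and -0.92 with sh1362. The words of the sh1362 group were rare in it: 4 of 58 members carried one, the other 54 had the same median of -0.92, and 21 of the 23 genes at least 2-fold lower were among them.

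Promoters of many such genes hold the CHR element, through which the DREAM complex and MYBL2 with FOXM1 act, often near CCAAT boxes bound by NF-Y. Those of CDC20 and PLK1 are given from RefSeq (GRCh38.p14, plus strand, 250 bases before to 50 after the start), with CHR words (TTTGAA) and CCAAT boxes (CCAAT), on either strand, in capitals.
CDC20 promoter, chr1:43358731-43359030: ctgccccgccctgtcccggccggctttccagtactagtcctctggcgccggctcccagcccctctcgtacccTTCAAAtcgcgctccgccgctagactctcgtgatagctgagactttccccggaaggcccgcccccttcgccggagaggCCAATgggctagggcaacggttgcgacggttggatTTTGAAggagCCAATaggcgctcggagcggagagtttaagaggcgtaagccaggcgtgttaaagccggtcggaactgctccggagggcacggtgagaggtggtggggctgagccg
PLK1 promoter, chr16:23678639-23678938: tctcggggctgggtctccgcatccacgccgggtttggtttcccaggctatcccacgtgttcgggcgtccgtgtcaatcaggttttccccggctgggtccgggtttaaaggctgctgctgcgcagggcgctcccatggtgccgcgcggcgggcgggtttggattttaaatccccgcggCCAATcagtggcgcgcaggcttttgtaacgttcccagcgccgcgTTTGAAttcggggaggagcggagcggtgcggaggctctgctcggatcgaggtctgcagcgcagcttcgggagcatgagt
Of 48 G2/M genes with a promoter in that table, 34 (70.8%) held TTTGAA on either strand, against 9.57% of 9342 tested genes and 15.4% of 27305 promoters. CCAAT stood in 35 of 48 (72.9%), against 37.5% of tested genes. Neither word contains the other, and a match describes the letters only. The 14 G2/M promoters without TTTGAA belonged to genes with a median of -1.11, and the 34 with it to genes with a median of -0.88.

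DNA replication and repair genes were lower as well, by less. Of 44 S phase genes 43 were lower with sh1362 (50.9% of all genes) and 4 at least 2-fold lower (3.71% of all genes), with a median of -0.64. RRM2, a subunit of the enzyme that makes deoxyribonucleotides, had 1971, 663 and 1114 counts (-1.46), E2F8, a repressor of the E2F family, 294, 93 and 289 (-1.53), and TYMS, thymidylate synthase, 147, 57 and 140 (-1.23). For E2F8 (37.3, 12.7 and 59.1 CPM) and TYMS (18.6, 7.78 and 28.6 CPM) the control lay above both hairpins. The replicative helicase subunits MCM7 and MCM4 were at -0.64 and -0.46. TIPIN, of the replication fork, was the 1 member higher with sh1362, at 0.43. Against shGFP both hairpins had lower medians for this list, -0.27 with sh490 and -0.91 with sh1362. E2F words (TTTCCCGC or TTTGGCGC, either strand) stood in 18 of 38 S phase promoters (47.4%), against 3.79% of tested genes. Against the same shares of all genes, 33 of 42 damage response genes were lower and 5 at least 2-fold lower, with a median of -0.43. Those 5 included the recombination helicase RAD54L (-1.21) and the checkpoint kinase CHEK1 (586, 254 and 702 counts, -1.09). BRIP1 and FANCC, of the Fanconi anaemia pathway, were at -1.19 and -1.14. CHEK1, BRIP1 and FANCC carried words of the sh1362 group, and RAD54L did not. Such words stood in 9 of the 42 genes. The other 33 had the same median of -0.43, and only 1 of them was at least 2-fold lower. The sensor kinase ATM was at 0.36.

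Neuroendocrine and granule genes were mostly higher with sh1362. Of 34 measured, 26 were higher (49.1% of all genes), 6 at least 2-fold (2.2% of all genes) and none 2-fold lower, with a median of 0.44. SYT4 led, followed by CHGB, the granule protein chromogranin B, with 562, 1339 and 528 counts (1.36), and CPE, a carboxypeptidase that processes prohormones, with 5397, 11907 and 6867 (1.25). CPLX2, a complexin of vesicle release, had 2040, 4017 and 1927 counts (1.08). The prohormone convertase PCSK1 had 32536, 53551 and 37310 counts (0.83), and CALCA, which encodes calcitonin and its related peptide, was near even at 36650, 36614 and 28522 counts (0.11). Against shGFP the list's medians were -0.19 with sh490 and 0.37 with sh1362. Transcription factors of the lineage were split: INSM1 was at 0.89 and NEUROD1 at 0.83, while NKX2-1 was at -0.32 and SOX11 at -0.59.

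Genes of the non-neuroendocrine state, among them the Notch pathway and REST, a repressor of neuronal genes, were mostly lower with sh1362. Of 14 measured, 12 were lower (50.9% of all genes) and 6 at least 2-fold lower (3.71% of all genes), with a median of -0.75. NOTCH2 had 290, 87 and 183 counts (-1.61), its target HES1 151, 56 and 65 (-1.30), REST 183, 72 and 100 (-1.22), and PLAU, urokinase, 70, 18 and 62 (-1.75). ANXA2 and ANXA1, phospholipid-binding annexins, were at -1.20 and -1.09. MYC was at 0.28 and the TGF-beta receptor TGFBR2 at 0.70. The list had medians of 0.24 with sh490 and -0.62 with sh1362 against shGFP. Of its 14 members 5 carried words of the sh1362 group, and the median of the other 9 was -0.60.

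Receptor tyrosine kinases were mostly lower with sh1362. Of 20 measured, 16 were lower (50.9% of all genes), 5 at least 2-fold (3.71% of all genes), and 4 were higher, none of them 2-fold, with a median of -0.34. Besides ERBB4 these were KIT, the stem cell factor receptor, with 211, 57 and 63 counts (-1.75), KDR, a VEGF receptor, with 81, 24 and 80 (-1.57), ERBB3 with 1887, 781 and 775 (-1.16), and RYK (-1.01). For KIT the control lay nearer to sh1362. For ERBB3 (239, 107 and 159 CPM) it lay about midway between the hairpins on the log2 scale, and for KDR (10.3, 3.27 and 16.4 CPM) above both. RET, the GDNF-family receptor, was on the other side with 1893, 3490 and 950 counts (0.99), and MET, the hepatocyte growth factor receptor, was at 0.53. Words of the sh1362 group stood in 8 of the 20, ERBB4, KIT, KDR and also RET among them. The median of the other 12 was -0.27, and only 1 of them, ERBB3, was at least 2-fold lower.

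Endoplasmic reticulum chaperone and folding genes were mostly higher with sh1362. Of 26 measured, 21 were higher (49.1% of all genes were higher by any amount), 2 at least 2-fold (2.2% of all genes), with a median of 0.50. PDIA4, a disulfide isomerase, had 2653, 5079 and 1990 counts (1.04) and ERN1, the stress sensor IRE1, 235, 482 and 235 (1.14). The chaperone genes DNAJB9, CANX and HSPA5 were at 0.93, 0.61 and 0.49, and HSP90B1 at 0.21. Of the 5 lower members, SEC24D, SDF2L1, SYVN1 and ATF6 lay between -0.06 and -0.01, and the oxidase gene ERO1A, with 752, 303 and 575 counts (-1.20), was the 1 at least 2-fold lower. ERO1A carried 2 words of the sh1362 group. Against shGFP the medians were -0.25 with sh490 and 0.21 with sh1362. The ERSE motif (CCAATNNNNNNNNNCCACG, either strand), which contains a CCAAT box and is the element through which ATF6 acts on such genes, was found in 7 of 24 promoters (29.2%), against 0.150% of tested genes. The chaperone genes with it had a median of 0.42 and those without it of 0.56.

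Targets of ATF4, the transcription factor of the amino acid response, lay on the same side. Of 30 measured, 26 were higher with sh1362 (49.1% of all genes) and 1 at least 2-fold (2.2% of all genes), with a median of 0.34. The 1 gene was SLC7A5, a transporter of large neutral amino acids, with 771, 1647 and 476 counts (1.20). MTHFD2, of mitochondrial folate metabolism, and the serine synthesis genes PSPH and PSAT1 were at 0.84, 0.83 and 0.82. ATF4 itself was at 0.30. Of 17 genes of secretory epithelia, 12 were higher with sh1362 (49.1% of all genes), with a median of 0.19. AGR2 was the 1 at least 2-fold higher (2.2% of all genes). GALNT7, an enzyme of mucin-type glycan synthesis, had 600, 984 and 303 counts (0.82), and the mucin genes MUC13 and MUC1 were at 0.32 and 0.19. CEACAM6, a surface glycoprotein, was the 1 at least 2-fold lower (3.71% of all genes), with 827, 295 and 146 counts (-1.37).

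Among apoptosis regulators the pro-death genes led the lower side. BAX, which permeabilises the mitochondrial outer membrane, had 331 counts with sh490, 78 with sh1362 and 155 with shGFP, 3.94-fold lower with sh1362 than with sh490 (3.07 to 5.11). BIK and BMF, activators of that step, were at -1.32 and -1.21, and the death receptor TNFRSF10B at -1.24. In all, 5 of 21 were at least 2-fold lower (3.71% of all genes), and none was 2-fold higher (2.2% of all genes). CASP8, with 54, 102 and 39 counts, was at 1.00 and stayed just under 2-fold on the log2 scale with the prior count. For BIK the control, at 41 counts against 197 and 72, lay below both hairpins. BAX and TNFRSF10B are also on the list of 18 p53 targets, whose other members were less than 2-fold apart. The median of that list was -0.13, and -0.03 over its 10 members without words of the sh1362 group.

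Antigen presentation and interferon genes were lower in most members, with few of them 2-fold apart. TAP2 is given above. TAPBP, which holds class I molecules to the peptide transporter, was at -0.99 and B2M, the class I light chain, at -0.19. The heavy chain genes are near-identical copies, from which reads that align to several places were left out, so their levels are uncertain. Of 18 MHC genes 12 were lower (50.9% of all genes) and 2 at least 2-fold lower (3.71% of all genes), with a median of -0.22. The 4 members with words of the sh1362 group, TAP2 and TAPBP among them, had a median of -0.62 and the other 14 of -0.07. Against the same shares of all genes, 15 of 21 interferon response genes were lower, with a median of -0.10. SAMD9L (269, 82 and 88 counts, -1.59) and OAS3 (-1.15) were at least 2-fold lower. That median was -0.38 over the 34 members with a mean CPM of at least 1 and -0.37 over the 43 with at least 1 read. In the machinery of small RNA silencing, AGO2, the Argonaute that cuts, had 1592, 629 and 779 counts (-1.23) and carried all 3 words of the sh1362 group. The median of the 21 genes of that list was -0.11.

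Targets of YAP and TEAD, factors that Src-family kinases are known to influence, were split. Of 18 measured, 3 were at least 2-fold lower (3.71% of all genes): CRIM1 (261, 83 and 150 counts, -1.52), AMOTL1 (-1.16) and LATS2 (-1.15). Another 2 were at least 2-fold higher (2.2% of all genes), MYOF and TGFB2 (295, 659 and 361 counts, 1.26). The median was -0.28. The 7 members with words of the sh1362 group had a median of -0.92 and the other 11 of 0.01. In the MAPK feedback list of 27 genes the median was -0.10 and only ETV4, an ETS factor with 364, 140 and 340 counts (-1.26), was 2-fold apart. For ETV4 (46.1, 19.1 and 69.6 CPM) the control lay above both hairpins. Beside YES1, 5 genes of the Src-family list were measured and none was 2-fold apart. FRK, LYN and FYN were at -0.31, -0.26 and -0.24, SRC was at 0.08, and CSK, the kinase that inhibits the family, at 0.01.

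**Figure D4:**
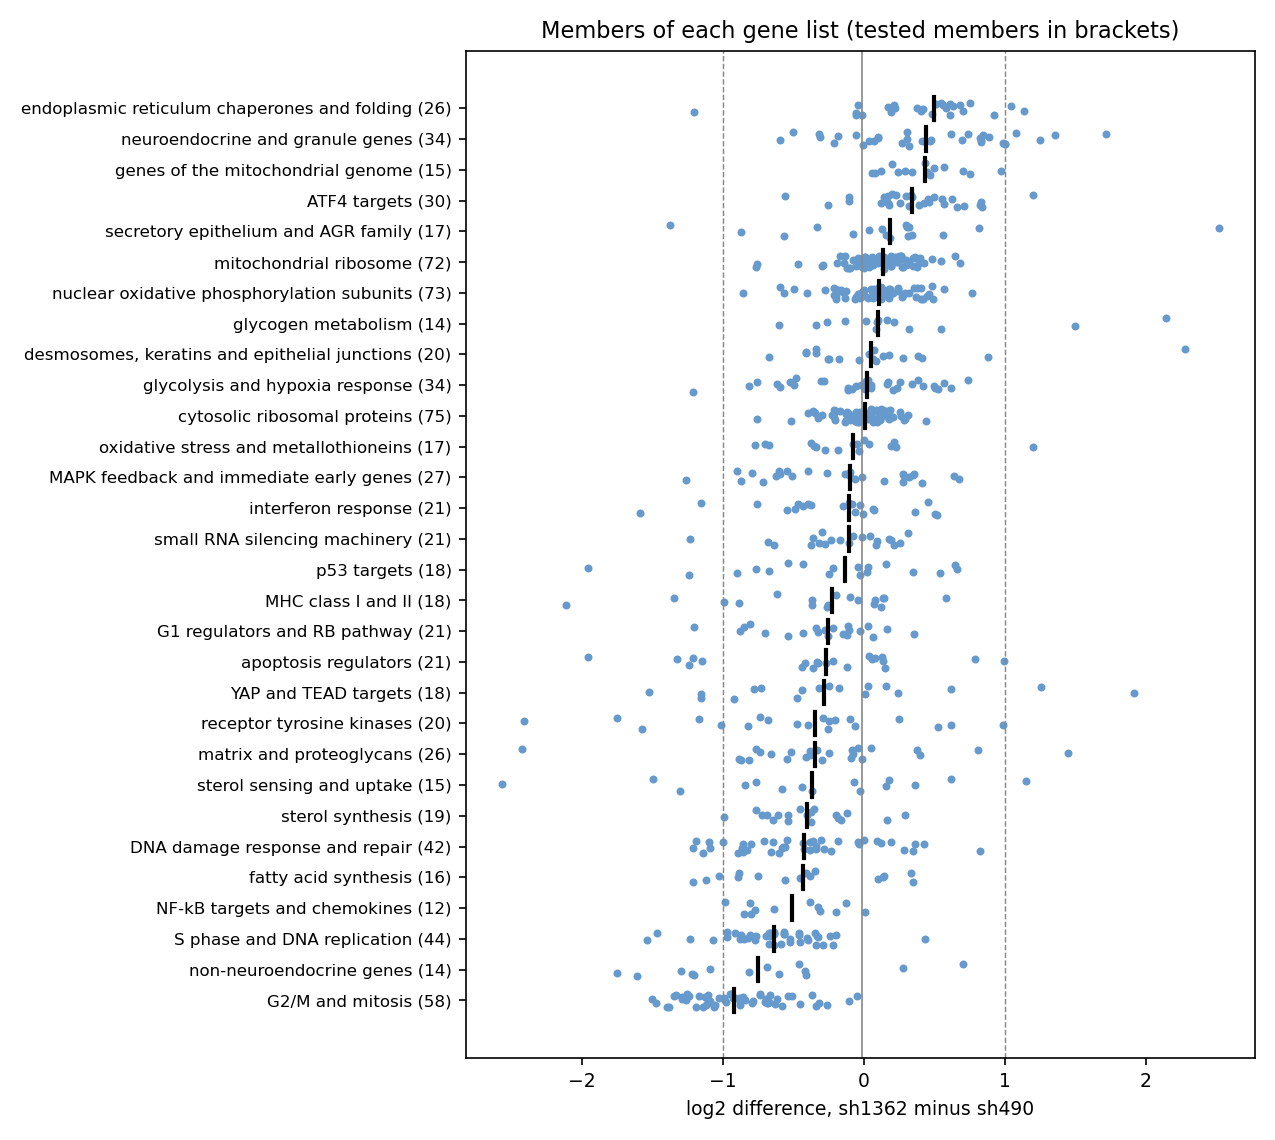
Log2 difference (sh1362 minus sh490, horizontal axis) of the measured members of each gene list (rows, number measured in brackets), 1 point per gene, with a black bar at the list's median and dashed lines at 2-fold. Among the lists drawn, G2/M and mitosis genes have the lowest median (-0.92), followed by the non-neuroendocrine list (-0.75), and the chaperone (0.50) and neuroendocrine (0.44) lists stand highest.

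The 15 genes on the list of the mitochondrial genome, its protein-coding and ribosomal RNA genes, were all higher with sh1362 and less than 2-fold apart, with a median of 0.43. MT-CO1, a subunit of cytochrome oxidase, had 81586 counts with sh490, 112265 with sh1362 and 46907 with shGFP (0.57), and MT-RNR2, the large ribosomal RNA, 62974, 114797 and 45628 (0.97). MT-ND5 was nearly level at 0.06. Of the 5 transfer RNA genes that also reached the minimum level, MT-TI (21, 83 and 26 counts, 1.99) and MT-TL1 (33, 84 and 29 counts, 1.40) were at least 2-fold higher. These transcripts sum to the larger mitochondrial share of the sh1362 library given above, 7.78% against 5.50%. The part of that share in the differences of other genes was not tested. Nuclear genes of oxidative phosphorylation, 73 in number, had a median of 0.11 with none 2-fold apart, the 72 genes of the mitochondrial ribosome 0.14, and the 75 cytosolic ribosomal protein genes 0.01.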

How the data were processed

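The deposited values are read counts of each gene, unnormalized, in 1 table for each library. Reads were checked with FastQC 0.11.8 and aligned with STAR 2.6.1c to GRCh38, per the submitters' processing notes, and assigned by featureCounts 1.6.0 to the exons of GENCODE 32, per the file headers, with default options: strand was not used, so that genes overlapping on opposite strands share reads, and reads in several places or genes were left out. TMM factors (edgeR 4.0.16) were computed over the hairpin libraries, and over all 3 for values of shGFP. Differences are log2 CPM with a prior count of 2, called at 2-fold, and ratios have exact conditional binomial 95% intervals. A count of 0 allows up to 3 counts (0.385, 0.404 and 0.612 CPM in sh490, sh1362 and shGFP). The calculations were tested on simulated data. Of the 60609 genes, 60295 had a symbol and 58457 matched GENCODE 29, used for untranslated regions. Named genes were the 15 protein-coding and 3 other genes farthest apart each way, the 10 each way with the interval bound farthest from 1, every sterol gene, and in each list the 4 most different and the 2 most abundant members; other list members were chosen after their values were seen. Some genes that this rule takes are left out of the text. The comparison, lists and words were chosen with earlier results of these data known. Other normalizations, prior counts, filters, call rules and gene sets were tried.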

Additional observations from a re-analysis of the deposited data

How the results depend on the processing

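No test was possible with 1 library for each hairpin, so direction and size are all that can be compared. No paired analysis was possible because there was 1 library for each hairpin and no replicate number to pair. Other normalizations (library totals, DESeq2 size factors, upper quartile, TMM without mitochondrial genome genes or over 3 libraries) gave 230 to 301 higher and 376 to 481 lower genes, and shifted the differences by at most 0.06 on the log2 scale. Counts moved with the filter, which changes how many genes are taken, and weakly expressed genes spread more. A mean CPM of at least 1 gave 783 higher and 870 lower of 15365 genes. A mean CPM of at least 10 gave 149 higher and 331 lower of 10023, and at least 1 read gave 3491 and 1975 of 26205. Over the same 11633 genes, counts moved with the call rule by construction. They were 997 and 1375 genes at 1.5-fold, 11 and 23 at 4-fold, and 81 and 183 with the interval wholly beyond 2-fold. Without carriers of the words of the sh1362 group, an alternative chosen after seeing the data, 224 of 9117 genes were lower. INSIG1 ranged from -2.60 to -2.50, AGR2 from 2.43 to 2.58 and YES1 from 0.47 to 0.57. Of 374 list medians (34 lists, 11 settings) 8 changed sign. Cytosolic ribosomal proteins were at -0.03 with library totals and -0.02 with DESeq2 size factors, and glycolysis genes at -0.01 with library totals and just below 0 with DESeq2 size factors. Replication-dependent histones, with 3 measured members at -0.33, were at 0.85 and 0.05 with the looser filters, nicotinic subunits at -0.07 with at least 1 read, and YAP and TEAD targets at 0.01 without carriers; the cause was not tested.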

Other observations

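Antisense and long intergenic genes were more often at least 2-fold higher than protein-coding genes. BETALINC1, a long noncoding RNA, had 13 counts with sh490, 125 with sh1362 and 24 with shGFP, a log2 difference of 3.18 and the largest of the 11633 genes. TMCC1-DT had 15, 67 and 15 counts (2.12). Of 171 antisense genes 12 were at least 2-fold higher (7.02%) and 2 lower, and of 214 long intergenic genes 12 (5.61%) and 5, beside 1.98% and 3.78% of 10954 protein-coding genes. Their medians were 0.17 and 0.16. In the fifth of all genes with the lowest mean CPM, 5.8% were at least 2-fold higher and 5.9% lower. Classes were not compared at equal level, so the part of level in these shares was not tested. Of 75 transcribed unprocessed pseudogenes, by contrast, 1 was at least 2-fold higher (1.33%) and 6 lower (8%), TUBA5P among them with 113, 29 and 41 counts (-1.79). The antisense, long intergenic and pseudogene classes were chosen after their values were seen. Antisense genes share reads with their partners where strand was not used. On chromosome 18, which holds YES1, 13 of 202 genes were at least 2-fold higher (6.44%) and 5 lower (2.48%), with a median of 0.03. Over all genes the shares were 2.2% and 3.71%.

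Genes of other functions differed singly. In glycogen metabolism, PPP1R3C and EPM2A, the phosphatase laforin with 38, 103 and 19 counts (1.495), were at least 2-fold higher among 14 genes with a median of 0.10. GCLM, a subunit of the enzyme that starts glutathione synthesis, had 1609, 3440 and 1312 counts (1.20) and was the 1 gene of 17 in the oxidative stress list that was 2-fold apart. Among 5 nicotinic receptor subunits CHRNA3, with 64, 127 and 75 counts, was at 1.07 and CHRNA9 at -2.38. The collagen gene COL5A2, with 31, 82 and 26 counts, was at 1.45 in a matrix list with a median of -0.35, and P4HA2, a collagen prolyl hydroxylase, was at -1.21 with 598, 239 and 407 counts. The 12 genes of the NF-kB list had a median of -0.50, and the 9 without words of the sh1362 group one of -0.32. None passed 2-fold on the log2 scale with the prior count. REL, an NF-kB subunit, came nearest with 166, 77 and 122 counts (-0.98), and CXCL8, a chemokine, had 1521, 827 and 2018 (-0.77).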
